A study of Mus musculus with 4 samples.

Results

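The 77 genes described here encode the proteins of the cytosolic ribosome, the particle that translates nuclear-encoded mRNA. They were chosen by symbol: an Rpl or Rps symbol with its number, or Rpsa, Rplp0, Rplp1 or Rplp2, with at least 100 UMIs (unique molecular identifiers, each counting 1 captured mRNA molecule) over all sections. Of the 32285 genes in the files 80 matched the name and 77 passed the minimum, 31 of the small subunit and 46 of the large subunit. The member with the fewest UMIs was Rps27l, a paralog of Rps27, with 9306, and the next was Rplp0 with 34233. The genes left out were Rpl3l with 33 UMIs, Rpl39l with 26 and Rpl10l with 0, all paralogs of a ubiquitous family member.

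The samples were 4 fresh-frozen brain sections of Nf1+/- mice, kept on a C57/BL6 background per the methods of the study, which carry 1 germline mutant allele of Nf1, the gene for the RAS regulator neurofibromin. All 4 sections had this genotype, no wild-type section was included, and the labels give neither age nor whether each section came from its own mouse. The design therefore compares regions within sections, and every p-value below measures only the spread between these sections. Polyadenylated RNA was captured on Visium slides, whose spots each cover a small region that can hold several cells. Nf1 itself had 184, 188, 134 and 118 UMIs in sections 1 to 4, that is 7.84, 5.08, 6.09 and 6.13 counts per 1000000 UMIs (CPM), and with no wild-type section these levels check no label.

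A cytosolic ribosome holds a small subunit, which reads the mRNA, and a large subunit, which forms the peptide bond. Its proteins are made in matched amounts, and their mRNAs share a pyrimidine tract at the 5′ end, the TOP motif, through which mTOR signalling controls their translation. Neurons translate in dendrites and axons as well as in the soma, and oligodendrocytes carry some mRNAs out to the myelin sheath. A spot near fibre tracts or neuropil can therefore hold mRNA outside cell bodies.

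The annotated start sites of the members are shown first because the TOP tract is the sequence these genes are known to share. The RefSeq promoter table (GRCm38.p6, the assembly of the mm10 build named in the submitters' processing notes) held 57 of the 77 members with 68 start sites. A run of at least 8 bases that were all C or T on the transcript strand, starting within 10 bases of the annotated start, was found at 20 of the 68 (29.4%, exact 95% interval 19.0 to 41.7). The share over all 32841 start sites of the table was 9.20%. The base at the start itself was C at 29.4% of the members' start sites and at 16.3% of all. The windows below run from 30 bases before the start to the 20 bases that begin with it, 5′ to 3′ on the transcript strand, with such a run in capitals. They are those of some of the genes to which the results below return.
Rps12 at chr10:23787190-23787239 (minus strand): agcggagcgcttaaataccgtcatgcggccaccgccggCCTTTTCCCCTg
Rps27 at chr3:90213629-90213678 (minus strand): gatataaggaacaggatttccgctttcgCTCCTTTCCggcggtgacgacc
Rps24 at chr14:24490648-24490697 (plus strand): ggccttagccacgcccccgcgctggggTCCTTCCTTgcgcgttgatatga
Rps9 at chr7:3704011-3704060 (plus strand): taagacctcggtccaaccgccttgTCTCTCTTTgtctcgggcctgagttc
Rpl4 at chr9:64173357-64173406 (plus strand): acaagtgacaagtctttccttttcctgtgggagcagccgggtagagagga
Rpl31 at chr1:39367821-39367870 (plus strand): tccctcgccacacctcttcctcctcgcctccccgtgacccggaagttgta
Rps25 at chr9:44407684-44407733 (plus strand): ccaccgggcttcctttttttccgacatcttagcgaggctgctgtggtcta
Rps12, Rps27, Rps24 and Rps9 encode small subunit proteins, and their capitals begin 8 bases after, 2 before, 3 before and 6 before the annotated start. Rpl4, Rpl31 and Rps25 had no such run in that interval, and their longest runs of C or T, of 14, 13 and 14 bases, began 18, 18 and 22 bases upstream. A start site annotated a few bases away would change these calls, so a window without capitals says only that those letters were not at that place. Rps24 had a further annotated start, not printed, which had no such run. Among other genes named below whose windows are not printed, Rpl15, Rpl13a and Rpl28 had such a run, of 17, 14 and 11 bases. Rplp2 and Rpl18 had a run of 10 bases each. Rplp0, Rpl10a, Rps7, Rps2, Rpl5, Rpl19, Rps13, Rps15, Rps21, Rps28, Rps27l and Rpsa had none. Rps29, Rpl21, Rplp1 and 17 other members were not in the table.

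Ribosomal protein mRNAs made up a large and fairly even share of the captured RNA. The 77 genes held 8.51, 7.19, 7.87 and 7.40% of all UMIs in sections 1 to 4, from totals of 23472790, 37001945, 22012734 and 19261103 UMIs in 1537, 2358, 2294 and 1431 spots with medians of 14922, 15296.5, 8862.5 and 12232 UMIs. Section 1 was highest and section 2 lowest. The spots between the 5th and the 95th percentile ranged from 6.61 to 11.6%, 5.39 to 10.3%, 6.12 to 11.3% and 5.63 to 11.5%, a span of 1.76-fold to 2.05-fold within a section. The SD over spots was 4.66 to 6.35 times that of counting alone.

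The share was higher in shallow spots in each section. In the 20% of spots with the fewest UMIs it was 9.89, 8.24, 9.29 and 9.48% in sections 1 to 4, and in the deepest 20% it was 7.59, 6.57, 7.29 and 6.79%. The rank correlation of share with total UMIs over spots of 1 section was -0.50, -0.45, -0.47 and -0.51, and that with the mitochondrially encoded share was 0.29, 0.41, 0.29 and 0.30. Both are descriptions, since a spot's share, depth and mitochondrial fraction come from the same counts and neighbouring spots share tissue.

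**Figure D1:**
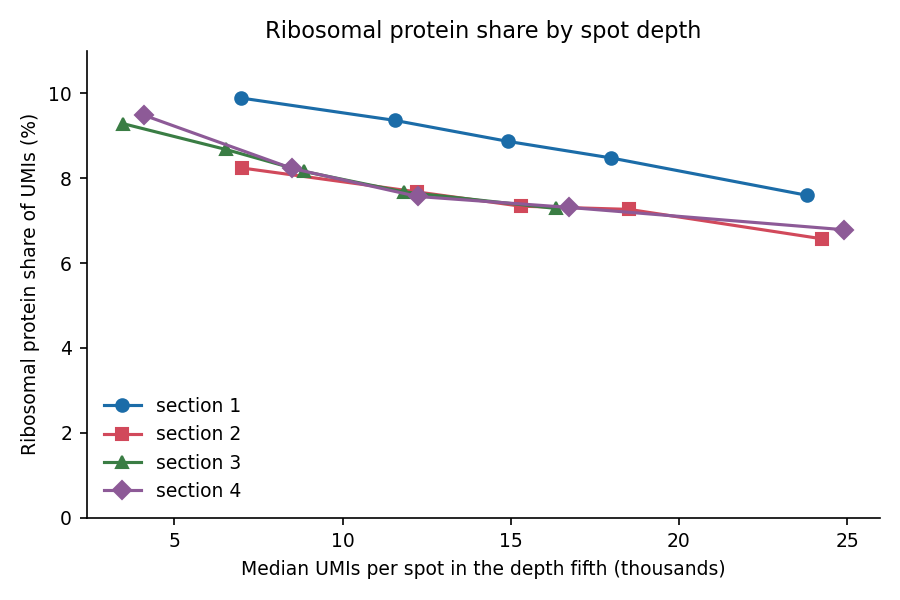
Share of all UMIs held by the 77 ribosomal protein genes (y axis, %) in 5 groups of spots of rising depth (x axis, median UMIs per spot, in units of 1000), with 1 line per section. The share fell from each group to the next in every section, from 9.89 to 7.59% in section 1.

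The regional pattern was read in classes of spots picked for marker genes of a cell type. The class of a list was the 10% of spots per section with the most UMIs of its markers above those expected from spot depth, so a class is a set of marker-rich regions and not of cells. A second set of markers, not used in picking, was 1.38-fold to 37.7-fold higher in the picked spots over the 11 such classes. Choroid plexus spots, with at least 3 of 10 markers, were used in sections 1 and 4 only, since the other sections had 4 and 7. The classes overlap and each is part of the comparison spots of the others, so their values are not independent.

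The share of UMIs held by ribosomal protein genes was on average highest in myelin-marker-high spots and lowest in glutamatergic-marker-high spots of the 12 classes. In section 2 the ependymal class was slightly above the myelin class, at 8.305 against 8.297%, with log2 ratios of 0.23 and 0.22. Myelin-marker-high spots, rich in mRNAs of oligodendrocytes such as Mbp and Mobp, held 10.3, 8.30, 9.60 and 10.5% in sections 1 to 4, against 8.40, 7.15, 7.79 and 7.30% in the other spots. They were above the other spots of their own section in 4 of 4 sections, by 0.33 ± 0.13 (SD, n = 4 sections) on the log2 scale, a mean ratio of 1.26. Glutamatergic-marker-high spots, rich in mRNAs of cortical excitatory neurons such as Slc17a7, held 7.11, 6.03, 7.0 and 6.85% against 8.75, 7.36, 8.03 and 7.49%. They were below the other spots in 4 of 4 sections, with a log2 ratio of -0.23 ± 0.080 (SD, n = 4 sections). Striatal-marker-high spots were also lower in all 4, at 7.93, 6.69, 7.29 and 6.94% against 8.60, 7.26, 7.95 and 7.48%, and their log2 ratio of -0.12 ± 0.007 (SD, n = 4 sections) had the smallest spread.

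The other classes differed less on average than the myelin and glutamatergic classes. The log2 ratio was 0.10 ± 0.040 (SD, n = 4 sections) in spots rich in markers of OPCs (oligodendrocyte precursor cells), 0.080 ± 0.034 (SD, n = 4 sections) for microglia, 0.069 ± 0.037 (SD, n = 4 sections) for astrocytes and 0.054 ± 0.014 (SD, n = 4 sections) for endothelium, each above 0 in 4 of 4 sections. Against spots matched on total UMIs the astrocyte class of section 1 was at -0.003. Neuroblast-marker-high spots stood at 0.11 ± 0.090 (SD, n = 4 sections), with 0.012 in section 1. Section 1 was below 0 in 3 alternatives, at -0.019 with 5% of spots, -0.013 against matched spots and -0.028 without mitochondrially encoded genes and picking markers. Ependymal and fibroblast classes averaged 0.14 and 0.11, with section 1 below 0 in both. The class picked with thalamic markers averaged 0.006 with 2 sections on each side of 0, and choroid spots were at -0.11 in section 1 and 0.18 in section 4. In that thalamic class 8 to 9 of its 11 markers were higher and up to 2 had no UMI. Whether its spots lie in the thalamus was not checked. In section 4 the ependymal, fibroblast and choroid classes were shallow, and against matched spots they were at 0.029, 0.017 and 0.032 there. No p-value was computed for a share summed over chosen genes, and the genes were tested singly.

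**Figure D2:**
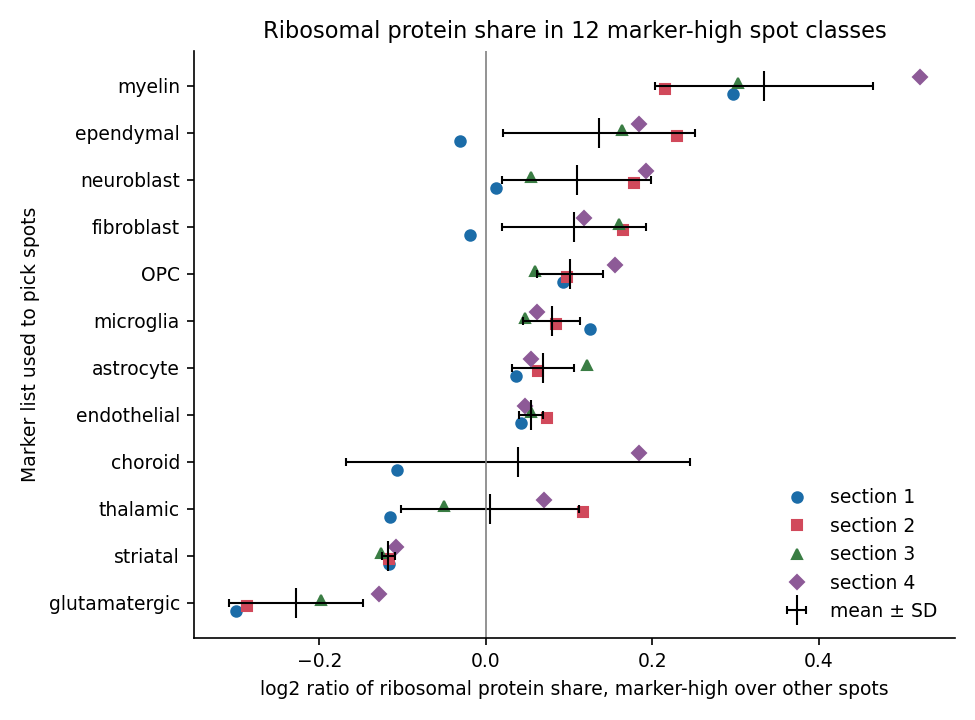
Log2 ratio of the ribosomal protein share in marker-high spots over the other spots of the same section (x axis) for 12 marker lists (y axis). Coloured points are sections, black bars the mean ± SD, with choroid in 2 sections only. Myelin sits at 0.22 to 0.52, glutamatergic at -0.30 to -0.13, and OPC, microglia, astrocyte and endothelial spots all lie between 0.036 and 0.16.

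Depth and cell mixture moved with these classes. Myelin-marker-high spots had medians of 7923, 5382, 3625 and 4077 UMIs against 15460, 16022, 9395 and 13196. Against the other spots nearest in total UMIs their log2 ratio was 0.20, but those spots had medians of 9906, 10882, 5555 and 7242 UMIs and so were still deeper. Among spots with at least 5000 UMIs the ratio was 0.20. In section 2 the myelin class stood at 0.10 after matching, below the ependymal (0.22), neuroblast (0.17), fibroblast (0.14) and thalamic (0.12) classes. It stayed the highest class after matching in sections 1, 3 and 4. At 5000 UMIs or more the ependymal class was above it in sections 2 (0.23 against 0.13) and 3 (0.16 against 0.15), and below it in sections 1 and 4. Glutamatergic-marker-high spots were deeper, with medians of 21324, 17986, 13697 and 17237 against 14268, 15075, 8386 and 11552, and stood at -0.16 after matching. Their mitochondrially encoded share was 9.88 to 11.95%, against 14.2 to 16.3% in the other spots. In striatal-marker-high spots it was 14.4 to 20.99% against 13.6 to 15.2%, and without mitochondrially encoded genes and the picking markers their log2 ratios were -0.042, -0.083, -0.10 and 0.025 in sections 1 to 4, above 0 in section 4. The same step gave -0.37, -0.37, -0.25 and -0.21 in glutamatergic-marker-high and 0.29, 0.22, 0.30 and 0.51 in myelin-marker-high spots. Fewer cells of a type and less RNA per cell cannot be told apart in spots.

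Clusters of spots built without ribosomal protein and mitochondrially encoded genes gave a similar range. Each section was split into 10 clusters, called here by their leading genes. The cluster led by myelin genes (Mog, Mal or Opalin among the first) had shares of 10.6, 9.77 and 9.99% in sections 1 to 3, and in section 4 a cluster led by A530053G22Rik, Thbs4 and Mog had 10.5%. Clusters with Slc30a3, Nrn1 or Pvalb among their first genes, genes expressed in cortical neurons, had 7.34, 6.20, 7.26 and 6.37%, the lowest or next to lowest of each section. The highest cluster over the lowest was 1.54, 1.58, 1.39 and 2.01-fold. In sections 1 and 4 the lowest were clusters of 33 and 24 spots led by Ttr, the choroid plexus transthyretin mRNA, at 6.91 and 5.76%. Ttr alone was 24.5 and 23.6% of their UMIs. Without Ttr and mitochondrially encoded genes their shares were 10.2 and 8.49%, against 8.65 and 7.27% in the Slc30a3 and Pvalb clusters above. In section 4 a cluster led by Ccn3, Vip and Nptxr was then at 8.60%, above that 8.49%. Another there, led by Trbc2 and Rprm, was at 8.38%. In section 1 a cluster led by Trbc2, Vxn and Ighm was at 9.17%, below the 10.2%. In sections 3 and 4 the highest clusters, of 25 and 34 spots, also had Ttr among their first genes, at 10.1 and 11.6%.

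Tested gene by gene, most members were higher in myelin-marker-high spots. The UMIs of each gene were added up within a section for marker-high and other spots. They entered the quasi-likelihood test of edgeR with the section as a block, TMM scaling (trimmed mean of M values) and Benjamini-Hochberg adjustment over all genes tested. Of the 77 members 62 were called at an adjusted p under 0.05, all higher and all with the same direction in the 4 sections. Over the 14280 genes tested 12.5% were called higher and 12.1% lower. The median log2 fold change of the members was 0.36, against -0.032 for all genes, and 70 members were higher in every section on the CPM scale. Of the 31 small subunit members 28 were called, and of the 46 large subunit members 34. Without section 3 the count was 37, and without section 1 it was 42. Against the other spots nearest in total UMIs, which were still deeper, it was 46, with a median of 0.24 for the members.

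Rps12 (ENSMUSG00000061983), a small subunit protein, had the highest fold change in myelin-marker-high spots. Its level was 1583, 1217, 1518 and 1743 CPM in sections 1 to 4, against 1089, 894, 981 and 883 CPM in the other spots. The lowest of the marker-high values lay above the highest of the others, and the log2 fold change was 0.69 (SE 0.10, adjusted p = 5.58e-05). Rplp0 encodes the scaffold of the ribosomal stalk, which recruits elongation factors. It stood at 455, 414, 557 and 597 CPM against 333, 320.1, 343 and 329 CPM, a log2 fold change of 0.64 (SE 0.10, adjusted p = 1.88e-04). Rps24 rose by 0.64 (SE 0.091, adjusted p = 9.08e-05), from 1554, 1307, 1553 and 1372 CPM to 2234, 1704, 2292 and 2557 CPM. All 3 kept their call under each of the 11 alternative settings run. Rps27l, the paralog with the fewest UMIs, had a log2 fold change of 0.63 (SE 0.10, adjusted p = 2.18e-04), Rpsa, a small subunit protein also known as the laminin receptor, 0.60 (SE 0.092, adjusted p = 1.80e-04), and Rps27a, made as a fusion with ubiquitin, 0.55 (SE 0.087, adjusted p = 2.27e-04).

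At the low end of the called members were Rps15 with 0.25 (SE 0.084, adjusted p = 0.0371), Rpl19 with 0.25 (SE 0.084, adjusted p = 0.0374) and Rps13 with 0.24 (SE 0.082, adjusted p = 0.0432), each lost in 7 or 8 of the 11 alternatives. The 15 members not called had positive fold changes too. They included Rpl10a at 0.007 (adjusted p = 0.968), Rpl4 at 0.033 (adjusted p = 0.826) and Rplp2, a stalk protein, at 0.19 (adjusted p = 0.118). The list of 14 OPC markers, which shares Olig1, Olig2 and Sox10 with mature oligodendrocytes, was higher by 1.21 to 1.62 on the log2 scale in these spots and that of 16 microglia markers by 0.40 to 0.99. The 13 glutamatergic markers were at -1.55 to -0.57, with 0 to 2 of them higher and each detected. Their part in the result was not tested.

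**Figure D3:**
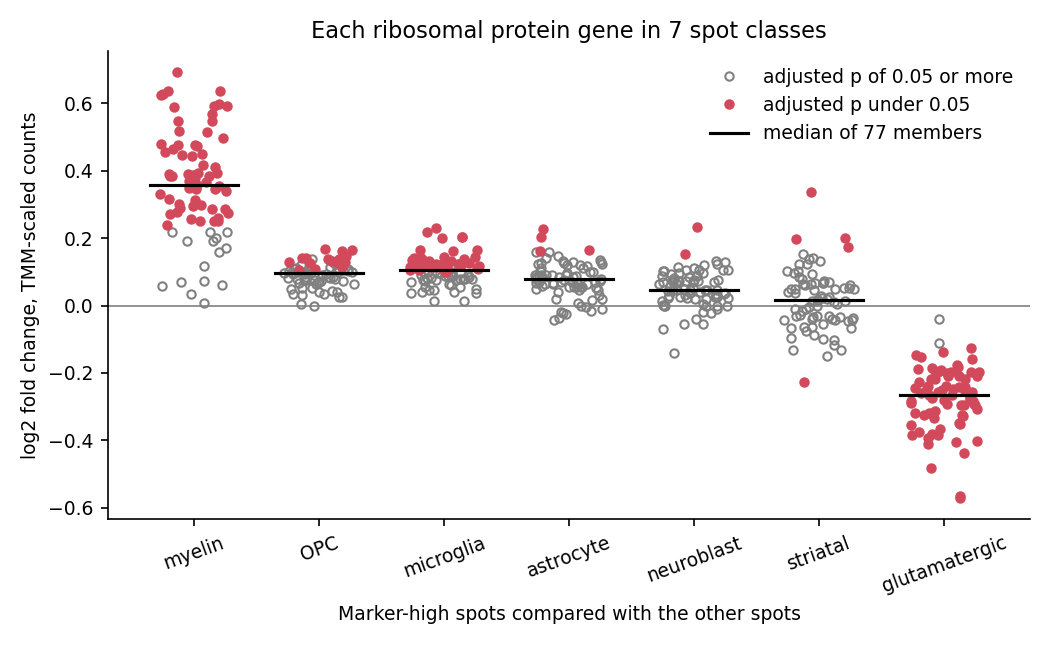
Log2 fold change of each of the 77 ribosomal protein genes (y axis, TMM-scaled counts) in 7 classes of marker-high spots against the other spots (x axis), filled where the adjusted p was under 0.05. The black line is the median, which runs from 0.36 in myelin to -0.26 in glutamatergic spots.

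In glutamatergic-marker-high spots the direction was the opposite for nearly the whole set. Here 75 of the 77 members were called, all lower, 69 of them below the other spots in each section on the CPM scale, where 15.9% of the 14176 genes tested were called lower and 15.8% higher. The median was -0.26, against -0.014 over all genes. The 2 exceptions were Rpl4, a core protein near the peptide exit tunnel, at -0.040 (adjusted p = 0.531), and Rpl8 at -0.11 (adjusted p = 0.0732). Leaving out a section gave 68 to 76 calls. The comparison shares its spots with that of the myelin class, so the pair is not independent.

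Rps27 (ENSMUSG00000090733) and Rps29 (ENSMUSG00000034892), which encode zinc-binding proteins of the small subunit, fell furthest. Rps29 was at 2469, 1710.3, 2054 and 2328 CPM in sections 1 to 4 of the marker-high spots and at 3698, 2691, 2637 and 3126 CPM in the others. The marker-high spots were below the others in all 4 sections, and the log2 fold change was -0.57 (SE 0.049, adjusted p = 7.97e-07). Rps27 went from 1707, 1215, 1234 and 1322 CPM to 1082, 778, 929 and 1056 CPM, a log2 fold change of -0.57 (SE 0.054, adjusted p = 2.00e-06). Rps12 followed at -0.48 (SE 0.044, adjusted p = 1.40e-06), and these 3 kept their call under all 11 alternatives. The stalk protein gene Rplp1 stood at -0.41 (SE 0.046, adjusted p = 1.12e-05), Rpsa at -0.32 (SE 0.042, adjusted p = 3.59e-05) and Rps27a at -0.32 (SE 0.043, adjusted p = 4.96e-05). Among the 69 called members of 1 direction in all sections the smallest falls were those of Rpl5, which carries 5S rRNA into the large subunit, at -0.15, Rpl29 at -0.15 and Rpl10a at -0.18. The calls of Rpl5 and Rpl29 were lost in 6 of the 11 alternatives each. On the CPM scale Rpl5 fell less, at -0.11, -0.086, -0.085 and -0.068 in sections 1 to 4. With total-UMI scaling 70 members were called, with a median of -0.20 for the members and 0.046 for all genes. Of the other called members Rps7, at -0.12 (adjusted p = 0.0419), and Rpl15, at -0.14 (adjusted p = 0.0218), fell less than Rpl5 and were above 0 on the CPM scale in section 4. The myelin list was at -0.90 to -0.31 on the log2 scale in these spots, with 0 of its 12 markers higher, and the striatal list was at -2.32 to -1.71. The part of these shifts in the result was not tested.

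OPC-marker-high spots showed small rises. Of the 77 members 17 were called, all higher, where 2.84% of the 14267 genes tested were called higher and 3.1% lower. The median was 0.098, against 0.001 over all genes, and 63 members were higher in all 4 sections. Rps12 was at 1221, 1012, 1096 and 1057 CPM against 1107, 897, 996 and 897 CPM, higher in each section, with a log2 fold change of 0.17 (SE 0.036, adjusted p = 0.00330). Rps29 was at 3932, 2842, 2718 and 3475 CPM against 3478, 2546, 2528 and 2964 CPM, with 0.16 (SE 0.030, adjusted p = 6.45e-04). Rps27 had 0.16 (SE 0.033, adjusted p = 0.00210). The lowest called rises were those of Rps20 at 0.12, Rps27a at 0.11 and Rps21 at 0.10, lost in 9, 8 and 9 of the 11 alternatives. Of the calls 11 were of the small subunit and 6 of the large.

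The number of calls in OPC-marker-high spots rested on single sections: it was 39 without section 1, and 3, 8 and 5 without sections 2, 3 and 4. With DESeq2 it was 3. The 12 myelin markers were all higher in these spots, by 0.36 to 0.52 on the log2 scale, and the 13 glutamatergic markers were at -0.92 to -0.41, with 0 or 1 of them higher. Their part in the result was not tested.

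Microglia-marker-high spots, rich in mRNAs such as C1qa and Cx3cr1, had 38 of 77 members called, all higher. Over the 14238 genes tested 6.48% were called higher and 3.52% lower. Rps9, a small subunit protein that acts in decoding accuracy, was at 661, 549, 585 and 603 CPM against 534, 478, 529 and 538 CPM, higher in each section, with a log2 fold change of 0.23 (SE 0.037, adjusted p = 3.11e-05). Rps29 had 0.22 (SE 0.032, adjusted p = 5.50e-06) and Rplp0 0.20 (SE 0.040, adjusted p = 4.46e-04). The lowest called rises, of Rpl28, Rpl36 and Rpl30, were 0.11, 0.11 and 0.10, and these calls were lost in 8, 10 and 10 of the 11 alternatives. Without section 2 the count was 6, and against depth-matched spots 15. The myelin list was higher by 0.26 to 0.57 here too, with all 12 markers higher, and 12 of the 13 mitochondrially encoded genes were called higher. The 13 glutamatergic markers were at -0.69 to -0.24, with 0 or 1 of them higher. The part of these shifts in the result was not tested.

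In astrocyte-marker-high spots 4 of 77 members were called, all higher, which lies below the 8.85% of the 14389 genes called higher there (5.8% lower). The median of the members was 0.078, against -0.001 over all genes. On the CPM scale 41 members were higher in every section and 1 was lower. With 20% of spots 23 were called higher, where 1570 of 14433 genes were, and with 5% it was 1, where 969 of 14285 were. Rps27l was at 114, 97.3, 102 and 109 CPM against 101, 81.4, 93.5 and 88.8 CPM and rose by 0.23 (SE 0.060, adjusted p = 0.0186) on the log2 scale. The others were Rplp0 with 0.20 (SE 0.051, adjusted p = 0.0144), Rps29 with 0.16 (SE 0.047, adjusted p = 0.0296) and Rpl13a, a large subunit protein, with 0.16 (SE 0.045, adjusted p = 0.0251). Of the 11 alternatives, 7 lost the call of Rps27l, 3 that of Rplp0, 8 that of Rps29 and 7 that of Rpl13a. Without section 2 no member was called, with 11 at an unadjusted p under 0.05, and DESeq2 called 1. Without section 1 or section 4 it was 2. In these spots 12 to 13 of 13 endothelial markers were higher, the list being at 0.50 to 0.60 on the log2 scale, with the fibroblast list at 0.53 to 2.09, the microglia list at 0.28 to 0.42 and the striatal list at -1.46 to -0.31. Their part in the result was not tested.

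Neuroblast-marker-high spots, rich in Dcx and Sox11, had 2 members called, below the 8.96% of the 14469 genes called higher and the 9.47% called lower. The median of the members was 0.047, against -0.001 over all genes. On the CPM scale 47 members were higher in every section and 0 were lower. Rps27l was the first, at 132, 93.8, 121 and 100.4 CPM against 99.6, 81.9, 91.6 and 89.9 CPM, higher in every section by a fitted log2 of 0.23 (SE 0.061, adjusted p = 0.00518). Rplp0 was the other, with 0.15 (SE 0.049, adjusted p = 0.0278). The Rplp0 call was lost in 8 of the 11 alternatives and that of Rps27l in 3. The 11 ependymal markers were all higher in these spots, by 2.42 to 3.58 on the log2 scale, more than the 14 neuroblast markers at 1.46 to 1.86. The thalamic list was at 1.17 to 1.56 and the choroid list at 0.76 to 3.26, and 11 of 13 mitochondrially encoded genes were called lower. Their part in the result was not tested. The call of 2 changed to 7, 1 and 0 without sections 1, 2 and 3, and to 35, all higher, with total-UMI scaling. That scaling called 1793 of the 14469 genes higher and 897 lower. It moved the median of all genes to 0.062 and that of the members to 0.11.

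In striatal-marker-high spots, rich in mRNAs of medium spiny neurons such as Drd2 and Ppp1r1b, the members divided. With TMM scaling 4 were called higher and 1 lower, where 18.7% of the 14128 genes were called higher and 19.5% lower. With total-UMI scaling 1 was called higher and 33 lower, where 1554 and 4001 of the 14128 genes were. The median of all genes moved from 0.001 to -0.13. With TMM scaling the split was 1 higher and 6 lower with 5% of spots, where 2165 and 2300 of 14035 genes were called. With 20% it was 17 and 0, where 3045 and 3084 of 14325 genes were called. It was 3 and 4 without the count filter (2380 and 3204 of 22107 genes), and 1 and 4 without section 4 (2367 and 2541 of 14362). The split of calls thus had no stable direction, and the 17 called higher lay near the share of all genes. On the CPM scale 57 members were lower in every section. With total-UMI scaling the median of the members was -0.12, no lower than the -0.13 of all genes. Rpl31 (ENSMUSG00000073702), a large subunit protein at the rim of the exit tunnel, was at 1049, 959.9, 1014 and 889 CPM against 909, 851, 869.8 and 767 CPM. It was higher in all 4 sections and called under all 11 alternatives, with a log2 fold change of 0.34 (SE 0.059, adjusted p = 2.15e-04). Rpl21 was lower in all 4, at 1397, 1232, 1607 and 1140.3 CPM against 1692, 1570.4, 1982 and 1630.0 CPM, with -0.23 (SE 0.060, adjusted p = 0.00573). These fitted values are on the TMM scale, which differs from the CPM scale here. The CPM log2 ratios of Rpl31 were 0.21, 0.17, 0.22 and 0.21 in sections 1 to 4, smaller than its fit. Those of Rpl21 were -0.28, -0.35, -0.30 and -0.52, a larger fall than its fit. The other 3 called, named after their values were seen, were Rplp2, Rps2 and Rpl3, with 0.20, 0.20 and 0.17. On the CPM scale Rplp2 was higher in 2 sections and Rps2 and Rpl3 in 3. The count of 5 became 2 and 3 without sections 1 and 3. In these spots the 13 glutamatergic markers were at -1.91 to -1.35 on the log2 scale and the 12 myelin markers at -0.51 to -0.13. In each list 0 or 1 marker was higher, and the part of these shifts in the result was not tested.

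Which genes left the common pattern was asked with the counts scaled to the ribosomal protein pool by TMM over the members alone. A fitted fold change is then relative to a trimmed mean of the members. The values by section beside it are unfitted log2 ratios of a gene's share of all ribosomal protein UMIs, so the fit can differ from their mean. In myelin-marker-high spots 8 members were called, 4 up and 4 down, and 15 had an unadjusted p under 0.05. Of all genes 41.5% were called on this scale, on which most genes outside the set shift. The adjustment ran over all genes, so in each class its cutoff was set mostly by genes outside the set. It does not control the error rate among the 77 members alone. Rps12 gained 0.35 (SE 0.10, adjusted p = 0.0112), with 0.24, 0.23, 0.33 and 0.46 in sections 1 to 4. Rplp0 gained 0.30 (SE 0.12, adjusted p = 0.0483) and Rps24 0.29 (SE 0.10, adjusted p = 0.0225). Rpl10a, a large subunit protein, stood at -0.33 (SE 0.11, adjusted p = 0.0219), with -0.32, -0.21, -0.41 and -0.55 by section. Rpl4 stood at -0.31 (SE 0.12, adjusted p = 0.0392) and Rps25, a small subunit protein used by viral internal ribosome entry sites, -0.28 (SE 0.11, adjusted p = 0.0448). All signs were shared by the 4 sections. However, no member was called without section 1 or without section 3, with 2 and 5 members at an unadjusted p under 0.05. Over the 10 alternatives run on this scale the Rplp0 call was lost in 7, and those of Rps25 and Rpl4 in 5 each. The calls of Rps24 and Rpl10a were lost in 3 each, and that of Rps12 in 2. DESeq2 called 12.

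In glutamatergic-marker-high spots 9 members departed, 3 up and 6 down, where 52.9% of all genes were called. Rps27 stood at -0.30 (SE 0.057, adjusted p = 1.97e-04) and Rps29 -0.29 (SE 0.053, adjusted p = 1.10e-04), with -0.36, -0.36, -0.21 and -0.20 in sections 1 to 4 for Rps27, and -0.28, -0.37, -0.16 and -0.30 for Rps29. Both calls were kept under all 10 alternatives run on this scale. Rps12 stood at -0.21 (SE 0.055, adjusted p = 0.00345). The gains were those of Rpl4 at 0.23 (SE 0.059, adjusted p = 0.00238), Rpl8 at 0.16 (SE 0.058, adjusted p = 0.0238) and Rps7 at 0.15 (SE 0.056, adjusted p = 0.0311). The calls of Rpl8 and Rps7 were lost in 5 and 8 of the 10 alternatives, and those of Rpl4 and Rps12 in 1 each. Without sections 1, 2 and 3 the count was 5, 4 and 5.

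In striatal-marker-high spots 10 members departed, where 35.9% of all genes were called. Rpl31 gained 0.31 (SE 0.050, adjusted p = 5.08e-05), with 0.32, 0.29, 0.35 and 0.32 by section, and was called under all 10 alternatives. Rplp2 gained 0.18 (SE 0.055, adjusted p = 0.0164) and Rps2, a protein at the mRNA entry site, 0.17 (SE 0.053, adjusted p = 0.0145). Rpl21 stood at -0.25 (SE 0.053, adjusted p = 7.46e-04) and Rpl18 at -0.17 (SE 0.055, adjusted p = 0.0189). The count was 6, 4 and 4 without sections 1, 2 and 3. The call of Rpl18 was lost in 4 of the 10 alternatives, of Rplp2 in 3, of Rps2 in 2 and of Rpl21 in 1.

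Few members departed in the other classes. An unadjusted p under 0.05 was found for 6 of 77 members in the microglia, 5 in the OPC and 6 in the neuroblast class. Microglia-marker-high spots had Rps9 at 0.13 (SE 0.040, adjusted p = 0.0206), Rps29 at 0.11 (SE 0.031, adjusted p = 0.00759) and Rps12 at 0.10 (SE 0.035, adjusted p = 0.0472), where 20.2% of all genes were called. No microglial departure was called without section 2 or section 3, with 3 members each at an unadjusted p under 0.05, and 1 was called without section 1. Over the 10 alternatives the microglial Rps12 call was lost in 9, and those of Rps9 and Rps29 in 4 each. The OPC class had Rps29 alone at 0.075 (SE 0.024, adjusted p = 0.0462), against 10.5% of all genes, and that call was lost under each of the 10 alternatives. The neuroblast class had Rpl29 alone, at -0.19 (SE 0.052, adjusted p = 0.00332), against 18.1%. In the astrocyte class edgeR called 0 members and 17.1% of all genes, with 4 members at an unadjusted p under 0.05, and DESeq2 called 0.

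**Figure D4:**
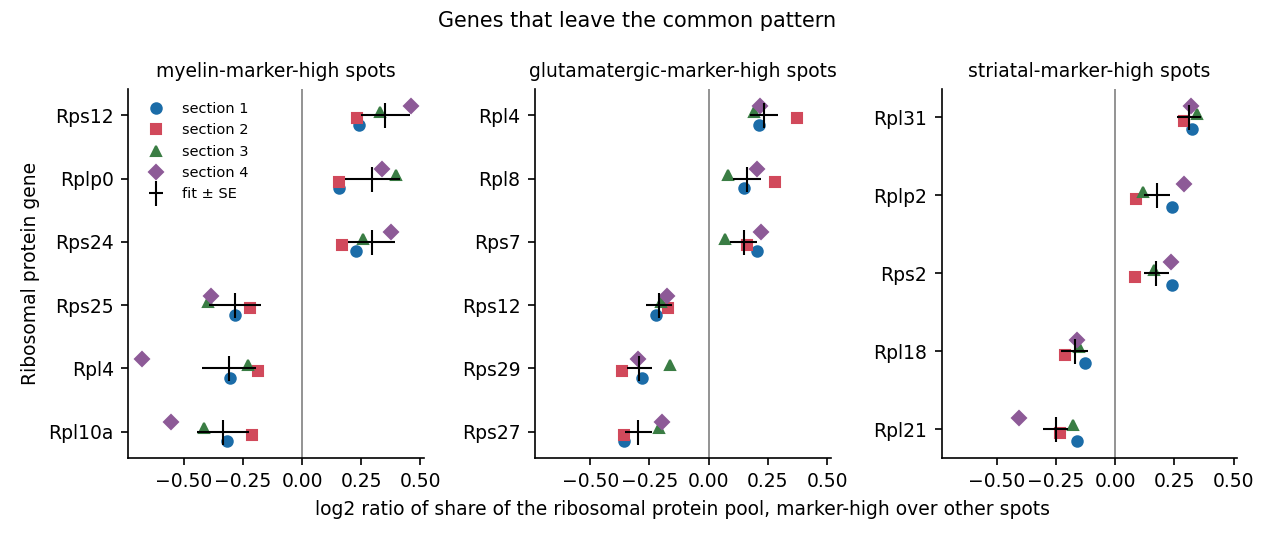
Log2 ratio of a gene's share of the ribosomal protein pool in marker-high over other spots (x axis) for the departing genes named in the text (y axis) in 3 spot classes. Coloured symbols are sections 1 to 4 and the black bar is the fitted value ± SE. Rpl31 lies at 0.29 to 0.35 in striatal spots in every section, and Rps27 at -0.36 to -0.20 in glutamatergic spots.

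Between whole sections the composition of the pool was alike. No member differed 1.5-fold or more in its share of ribosomal protein UMIs, the median ratio of highest to lowest section was 1.10, and 67 of 77 were under 1.2. With 1 library per section no test was possible. The largest ratio, 1.31, was that of Rpl5, at 0.506, 0.661, 0.566 and 0.548% of the pool in sections 1 to 4. Rpl4 was at 0.776, 1.00, 0.877 and 0.795%, lowest in section 1 and highest in section 2. Rps29 was at 4.13, 3.57, 3.24 and 4.07% and Rps28 at 1.70, 1.43, 1.42 and 1.77%, with sections 1 and 4 above the other two for both. The acidic stalk genes Rplp1 and Rplp2 were at 4.32, 4.21, 3.75 and 3.78% and 1.04, 1.08, 1.02 and 1.01%, Rplp0 at 0.399, 0.450, 0.449 and 0.456% and Rpsa at 1.03, 1.15, 1.13 and 1.02%. These genes were singled out after their values were seen, apart from the stalk genes and Rpsa. Shares of different genes are not set against each other, since capture and unique mapping differ between them and many have processed pseudogenes.

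Spot by spot, each member's counts were compared with those expected from the spot's ribosomal protein total. Pure counting gives a chi-square per degree of freedom near 1, and the median member was at 1.16, 1.12, 1.08 and 1.15 in sections 1 to 4. Rps29 scattered most in every section, at 2.88, 2.48, 1.94 and 2.93. Rpl21 was among the top 3 in every section, at 1.67, 1.51, 1.48 and 1.57, and Rps27 at 1.78, 1.64, 1.28 and 1.62, next to Rps29 except in section 3. Rps27l, the sparse paralog, was at 1.302, 1.09, 1.09 and 1.16. A gene with more UMIs shows a given relative scatter more clearly, so this order is a description chosen after the values were seen.

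**Figure D5:**
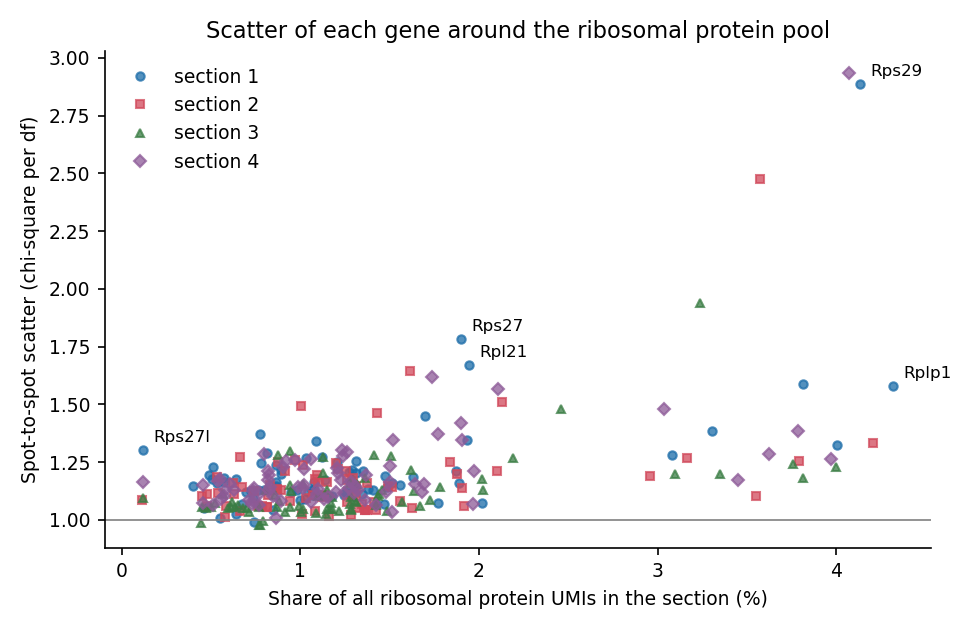
Scatter of each ribosomal protein gene around the pool over the spots of a section (y axis, chi-square per degree of freedom, 1 for counting alone) against its share of ribosomal protein UMIs (x axis, %). Each gene has 1 symbol per section. Rps29 stands apart at 1.94 to 2.93, above Rps27 and Rpl21.

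Genes that work beside the ribosome were read from lists in the TMM fit. Ribosomal genes the name rule leaves out, 8 in all, had 3 called higher and none lower in myelin-marker-high spots (median 0.28), among them Rps3a1 with 0.44 (SE 0.082, adjusted p = 8.06e-04) and Fau with 0.39 (SE 0.083, adjusted p = 0.00225). In glutamatergic spots 5 of the 8 were lower (median -0.19), among them Fau with -0.23 (SE 0.041, adjusted p = 5.77e-04). Of 17 other mRNAs known to carry a TOP tract 5 were higher and 1 lower in myelin spots (median 0.15), and 6 were lower in glutamatergic spots (median -0.11). Tpt1, the translationally controlled tumor protein, had 0.64 (SE 0.087, adjusted p = 5.52e-05) in myelin and -0.20 (SE 0.044, adjusted p = 0.00232) in glutamatergic spots. Eef1a1, the elongation factor that delivers tRNA, had 0.46 (SE 0.089, adjusted p = 0.00117) and -0.35 (SE 0.042, adjusted p = 2.02e-05). Gas5, a noncoding TOP RNA, had 0.52 (SE 0.087, adjusted p = 3.36e-04) and -0.36 (SE 0.060, adjusted p = 2.99e-04). The OPC class had 2 of the 17 called, both higher.

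Other parts of the translation machinery are read against all genes, of which 12.5% were called higher and 12.1% lower in myelin spots, 15.8 and 15.9% in glutamatergic and 18.7 and 19.5% in striatal spots. Of 23 initiation factors 1 was called higher and 2 lower in myelin spots (median -0.023), and 2 higher and 1 lower in glutamatergic spots (median 0.035). Of 20 ribosome biogenesis genes 1 was lower in myelin spots (median -0.16), 2 were higher in glutamatergic spots and 6 were higher in striatal spots, among them Ncl, nucleolin, with 0.32 (SE 0.060, adjusted p = 3.83e-04). Mitochondrial ribosomal proteins, which form the separate ribosome of that organelle, numbered 75. In myelin spots 2 were called lower, in glutamatergic spots 3 higher and 6 lower, and in striatal spots 23 higher and 3 lower. One of them, Mrps33, had 0.47 (SE 0.059, adjusted p = 5.98e-06). Of 4 hemoglobin genes, markers of blood, none was called in myelin or glutamatergic spots (median -0.98 and 0.36), and all 3 tested were lower in striatal spots. Of the 13 mitochondrially encoded genes 13 were lower in glutamatergic and 12 higher in striatal spots.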

How the data were processed

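The authors deposited UMI counts, not normalized, for every gene in each spot of 4 Visium libraries (10 µm fresh-frozen sections), made with Space Ranger 1.3.1 per the file headers, on mm10 per the submitters' processing notes. Spots under 500 UMIs (17, 1, 26 and 4 in sections 1 to 4) were left out. CPM are counts scaled to 1000000 per spot group. Members and lists were chosen with earlier results of these data known, and the study's region outlines were not used here. Sections were numbered in accession order. Barcodes recur between sections (418 in all 4 and 2447 of 3083 in at least 2), because slides share a position list, so spots were keyed by section.

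Spots were scored as observed minus expected marker UMIs over the square root of the expected, and the top 10% taken. Counts summed per section and spot group were tested with edgeR 4.0.16 (R 4.3.3; filterByExpr, section block), also with TMM factors from the members alone. SE is the log2 fold change over the square root of F. Clusters are k-means in scikit-learn 1.9.0 (10 clusters on 20 components of 1000 variable genes). Alternatives were 5% or 20% of spots, other spots nearest in depth (still deeper for myelin), at least 5000 UMIs, total-UMI scaling, DESeq2 1.42.0, no filter, no block, and each section left out. Scripts were tested on simulated data. Named genes were the listed stalk genes, Rpsa, Rps27a and paralogs, per class the 3 highest and 3 lowest called members in either fit with 1 direction in all sections, and examples from the pathway lists; some genes that met this rule are not reported here. Intervals cover counting error only.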

Additional observations from a re-analysis of the deposited data

Results flagged for a closer look

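Among 67 sets of 4 section values compared, 2 had a section far from the other 3, where chance gives about 3.35. The share of Rpl4 in the ribosomal protein pool of glutamatergic-marker-high spots had a log2 ratio of 0.37 in section 2, against 0.19 to 0.22 in the other sections. The CPM log2 ratio of Rplp0 in astrocyte-marker-high spots was 0.093 in section 1, against 0.22 to 0.23 in the others.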

How the results depend on the processing

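Of the 55 named gene results recomputed in 582 cases, 0 changed direction, 362 kept their side of the threshold and 220 were no longer called. The split of calls in striatal spots moved with scaling, the share of spots, the filter and section 4, as given above. The share averaged 7.74% over sections and 9.08% without mitochondrially encoded genes. The log2 ratio of the share in myelin spots was 0.20 both against the other spots nearest in depth, which were still deeper, and at 5000 UMIs or more. In striatal spots it was -0.16 with 5% and -0.049 with 20% of spots, -0.050 without mitochondrially encoded genes and picking markers, and -0.071 against matched spots. Start-site runs of at least 6 bases were at 42.6% of the members' start sites and 23.1% of all.

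Member calls with TMM scaling varied most outside the myelin and glutamatergic classes. With 5% of spots they were 1 for OPC, 1 for astrocyte and 24 for microglia. With 20% they were 23 for astrocyte and 17 for striatal spots, all higher. Of all genes 1570 of 14433 and 3045 of 14325 were called higher there. Against matched spots they were 5 for OPC, 2 for astrocyte and 15 for microglia. DESeq2 gave 3 for OPC, 1 for astrocyte, 16 for microglia and 0 for neuroblast (8 at an unadjusted p under 0.05). Without the count filter OPC had 5 and astrocyte 1. Total-UMI scaling gave 32 for OPC, 21 for microglia, 34 for striatal and 35 for neuroblast. Of all genes 1554 were then called higher and 4001 lower in striatal spots, and 1793 and 897 in neuroblast spots. Leaving out a section gave 37 to 61 for myelin, 3 to 39 for OPC, 0 to 3 for astrocyte, 6 to 34 for microglia, 68 to 76 for glutamatergic, 2 to 5 for striatal and 0 to 7 for neuroblast.

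The section was the replicate block because both spot groups came from 1 section. With no replicate block edgeR called 35 members in myelin, 31 in glutamatergic, 1 in striatal and 0 in OPC, astrocyte, microglia and neuroblast spots, with 0, 2, 2 and 1 at an unadjusted p under 0.05. On the pool scale with no replicate block the counts were 1 for myelin, 2 for glutamatergic, 1 for striatal, and 0 for OPC, microglia and neuroblast, with 0 unadjusted in each of these 3.

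On the pool scale myelin had 15 with 5% of spots and 5 without the filter, microglia 1 with 5%, glutamatergic 14 with 20% and 4 against matched spots, striatal 5 against matched spots and 4 with DESeq2, and neuroblast 2 with 20%. The single OPC call became 0 with 5%, with 20%, against matched spots, with DESeq2 and without the filter (1, 4, 2, 0 and 5 unadjusted). Leaving out a section gave 0 to 8 for myelin, 0 to 0 for OPC, 0 to 2 for microglia, 4 to 10 for glutamatergic and 4 to 8 for striatal spots. The cause was not tested. Depth limits the sparse Rps27l most, with a UMI in 54.6% of the spots of section 3.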
